A study of Mus musculus with 24 samples.

Results

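Genes of cell-cell junctions were followed through tooth-bearing jaw bone, the dentoalveolar complex (DAC), and through gingiva of mice with ligatured molars. The set held all claudins (Cldn), desmogleins (Dsg), desmocollins (Dsc), plakophilins (Pkp), connexins of the Gja and Gjb groups, numbered cadherins (Cdh) and tight junction proteins (Tjp), with Dsp, Jup, Ocln, Ppl and Evpl; the endothelial cadherin Cdh5 was left out. The rule uses gene symbols only and no measured value. The mouse annotation has 89 such protein-coding genes, of which 59 were among the 38321 gene IDs of the files: 16 cadherins, 13 connexins, 4 desmosomal plaque genes (Jup, Pkp1, Pkp3, Pkp4) and 26 tight junction genes. The other 30, among them Dsp, Ocln, Ppl, Evpl, Cldn1, Pkp2 and all desmogleins and desmocollins, are not analysed here, so desmosomes are represented by plaque genes only.

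The study asked how loss and replacement of estrogen change gene expression around teeth with ligature-induced periodontitis. All mice were female, wild-type C57BL/6J, 11 weeks old at the start, and all carried a silk ligature around the second molars of both sides of the upper jaw from day 7 until collection on day 14. The OVXE2 group was ovariectomised on day 0 and given 1 µg of estradiol benzoate a day under the skin, in 100 µL of corn oil, from day 4. The OVX group was ovariectomised and given vehicle, and the Sham group had sham surgery and vehicle. No group lacked the ligature, so every value here is from inflamed tissue. The DAC is the jaw bone with its teeth after soft tissue was cleaned away, and gingiva is the gum around the molars. Each tissue gave 4 poly(A) RNA-seq libraries per group, 24 in all. The labels call these biological replicates but do not say if each is 1 mouse, nor if DAC and gingiva were taken from shared animals, so the p-values measure the spread between these samples.

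Junctions hold epithelial sheets together and seal them. In desmosomes, plakophilins and plakoglobin (Jup) tie transmembrane cadherins to keratin filaments, and in adherens junctions classical cadherins are tied to actin. Claudins form the seal and the ion pores of tight junctions, which the Tjp scaffolds anchor, while connexins form gap junction channels that pass ions and small molecules between cells. In gum epithelium these structures make the barrier against dental plaque. Several family members also belong to other cells, such as Cdh11 and Gja1 of bone-forming cells or Gja4 and Gja5 of endothelium.

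Total gene counts per library ran from 14771830 to 29248358 in the DAC and from 18598422 to 26001342 in gingiva; DAC Sham libraries were the shallowest (14771830 to 24923126). Marker genes set the tissues apart as labelled: 9 listed genes of stratified epithelium, mainly keratins, took 0.106 to 1.08% of DAC counts and 9.72 to 12.3% of gingival counts. Some DAC libraries stood apart. OVXE2 library 1 had the highest stratified epithelium share, 1.08%, against 0.106 to 0.443% in the other DAC libraries. OVX library 1 had 13.2% of its counts in 9 nasal gland genes, against 0.172 to 1.70% in the others. Sham library 2 had the highest share of 5 brain neuron genes, 0.0325%, against 0.00301 to 0.0115%.

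Gingiva had a short list of dominant junction genes. Levels that are compared between genes are given as library-scaled counts (CPM, scaled by TMM over the 24 libraries) per kb of annotated exon, as mean ± SD over the 12 libraries of a tissue. The plakophilin Pkp1, a desmosomal plaque protein of stratified epithelia, stood first in gingiva at 1082 ± 55.7 CPM per kb. Gjb2, a keratinocyte connexin, followed at 646.5 ± 70.6 CPM per kb, and plakoglobin at 507 ± 28.3 CPM per kb. These first 3 genes made up 66.8% of the summed level of all listed members, and the first 10 made up 94.5%. Gja1 (285 ± 17.3 CPM per kb) and Pkp3 (248 ± 13.8 CPM per kb) did not overlap with plakoglobin in any library. E-cadherin (Cdh1, 152 ± 7.42), Cldn4 (98.1 ± 12.7), Gjb6 (75.3 ± 7.92) and Tjp1 (27.4 ± 3.17 CPM per kb) were also among the first 10. Tjp1 and Cdh3 (25.6 ± 3.73 CPM per kb) did not differ beyond their spread.

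In the DAC the level was lower and spread over more genes. Gja1, the main connexin of osteoblasts and osteocytes, led at 73.8 ± 11.1 CPM per kb, and Cdh11, a cadherin of osteoblasts and other mesenchymal cells, followed at 70.0 ± 8.19 CPM per kb; these 2 ranges overlapped. Together they made up 36.5% of the summed level, and the first 10 members made up 76.1%. Pkp1 (33.5 ± 25.9) and plakoglobin (33.2 ± 12.04 CPM per kb) came next, but with a spread over libraries that was large for Pkp1, 12.8 to 107.5 CPM per kb. Cldn4 (17.1 ± 7.36), Gjb2 (16.1 ± 13.4), Gja4 (15.9 ± 4.41), Tjp1 (13.9 ± 2.84), E-cadherin (13.2 ± 5.28) and Pkp4 (12.98 ± 1.65 CPM per kb) overlapped one another. Lengths are of all annotated exons, so the order of genes with close levels can depend on which transcripts are used.

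**Figure D1:**
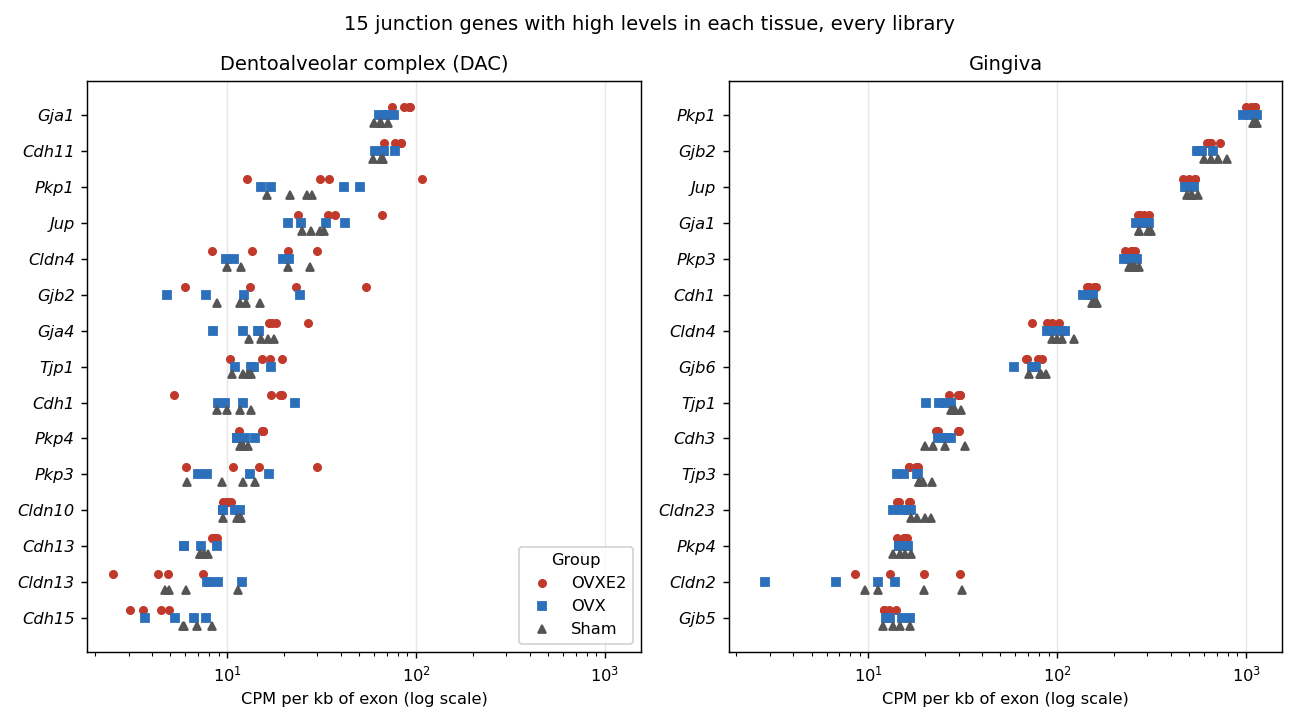
CPM per kb of exon (log axis) of 15 junction genes with high mean levels in the DAC (left) and in gingiva (right), 1 point per library, with OVXE2 as circles, OVX as squares and Sham as triangles. Pkp1, Gjb2 and Jup stood highest in gingiva with little spread, while Gja1 and Cdh11 led in the DAC and Pkp1 ran from 12.8 to 107.5 CPM per kb there.

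Of the 59 listed members, 40 passed the filter on low counts and could be tested over the 24 libraries. Of the 19 others, 9 (Cldn24 and 8 Cldn34 genes) had no count in any library, and the other 10 had few, with at most 156 counts in a library (Cldn22). Of the 40, 35 passed in each tissue alone. Cdh17, Cdh20, Cdh22, Cdh26 and Cldn13 passed through the DAC only, which favours a higher value there, and are described apart.

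Most junction genes differed between the DAC and gingiva, in both directions. At an adjusted p under 0.05 (edgeR's quasi-likelihood test, Benjamini-Hochberg adjustment over all 14209 genes), 37 of 40 members differed in OVXE2, where 72.1% of all genes did: 17 members were higher in the DAC (38% of all genes) and 20 lower (34.1%). In OVX 37 of 40 members differed, beside 72.4% of all genes: 18 were higher (38.1%) and 19 lower (34.2%). In Sham 36 of 40 differed, beside 75.1%: 16 were higher (39.7%) and 20 lower (35.4%). Over all genes, DAC and gingival values did not overlap, with the DAC higher or lower, for 33.5 and 30.3% in OVXE2, 34.8 and 30.3% in OVX, and 36.6 and 34.3% in Sham. Among the 35 members that passed the filter in both tissues, 32 differed in each group, beside 71.2, 71.6 and 73.9% of all genes passing in both. Of those 32, 12 were higher and 20 lower in the DAC in OVXE2, 13 and 19 in OVX, and 12 and 20 in Sham. Of all 12131 genes passing in both, 4231 were higher and 4411 lower in OVXE2, 4225 and 4460 in OVX, and 4367 and 4603 in Sham. The median log2 difference of the 35 was -0.93 in OVXE2, -0.81 in OVX and -1.2 in Sham, beside -0.05, -0.03 and -0.03 for all genes passing in both. In bulk tissue, fewer cells of a type and less RNA per cell cannot be told apart, and this holds for every difference below.

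The desmosomal plaque genes were the most one-sided group. Pkp1 had 133, 81.4, 108 and 141 CPM in Sham DAC, against 5755, 5558, 5488 and 5500 CPM in Sham gingiva. No DAC library came near a gingival one, and the log2 difference was -5.59 ± 0.52 (SE, adjusted p = 4.01e-09, edgeR). Plakoglobin had 199, 159.9, 179.7 and 209.8 CPM in Sham DAC, against 3574, 3335, 3271 and 3119 CPM in Sham gingiva, a log2 difference of -4.15 ± 0.25 (adjusted p = 5.35e-12, edgeR). Pkp3 was lower by a similar margin, with log2 differences from -4.61 in Sham to -3.998 in OVXE2. Pkp4, a plakophilin relative found at adherens junctions of many cells, differed little: its log2 difference was -0.08 ± 0.09 in OVXE2, which did not pass (adjusted p = 0.451, edgeR), and -0.30 in OVX and -0.31 in Sham, which did.

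Cadherins divided into a small group lower in the DAC and a larger group higher there. E-cadherin, the adherens junction cadherin of epithelia, had 40.4, 45.8, 61.0 and 53.5 CPM in Sham DAC, against 746.6, 695.9, 721 and 710.8 CPM in Sham gingiva. Its groups lay far apart, with a log2 difference of -3.84 ± 0.32 (adjusted p = 8.30e-10, edgeR). P-cadherin (Cdh3) of basal epithelial cells and R-cadherin (Cdh4) were also lower in the DAC in each group, with log2 differences from -2.44 to -2.13 and from -2.00 to -1.38.

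Cdh11 went the other way, with 597, 585, 578 and 525 CPM in Sham DAC, against 72.0, 87.4, 47.1 and 67.1 CPM in Sham gingiva. Its log2 difference was 3.06 ± 0.21 (adjusted p = 2.71e-11, edgeR) in Sham and lay between 2.81 and 3.06 in the 3 groups. M-cadherin (Cdh15), known from muscle satellite cells, had 27.1, 22.4, 18.8 and 19.2 CPM in Sham DAC, against 0.416, 1.26, 0.446 and 0.889 CPM in Sham gingiva. Its log2 difference was 4.83 ± 0.36 (adjusted p = 1.27e-10, edgeR). Skeletal muscle markers took 0.0211 to 0.275% of counts in the DAC and 0.0194 to 0.334% in gingiva, and their part was not tested. The GPI-anchored cadherin Cdh13, Cdh19 of the Schwann cell lineage, Cdh23 of the hair cell tip link and Cdh24 were also higher in the DAC in each group, by log2 differences from 0.33 (Cdh13 in OVX) to 3.07 (Cdh23 in OVX). Schwann cell markers took 0.0261 to 0.0546% of DAC counts and 0.0211 to 0.0337% of gingival counts; their part in the level of Cdh19 was not tested.

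Among the tight junction genes, the epithelial claudin Cldn4 had 18.1, 21.5, 50.1 and 38.3 CPM in Sham DAC, against 223.9, 170.0, 180.2 and 192 CPM in Sham gingiva, a log2 difference of -2.58 ± 0.35 (adjusted p = 1.05e-06, edgeR). Every DAC library lay below every gingival one. Cldn2, a cation pore claudin known from leaky epithelia, was lower in the DAC with log2 differences from -5.37 in Sham to -3.49 in OVX. Cldn23 (-4.81 to -3.76), the scaffold Tjp3 (-3.81 to -2.80), the scaffold Tjp1 (-1.23 to -0.81) and Cldn12 (-1.01 to -0.86) were lower in each group as well.

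Cldn15, a cation pore claudin known from intestine, was one of 5 tight junction genes higher in the DAC in every group. It had 8.25, 8.996, 6.70 and 5.36 CPM in Sham DAC, against 0.374, 0.461, 0.279 and 0.0808 CPM in Sham gingiva, a log2 difference of 4.59 ± 0.45 (adjusted p = 7.43e-09, edgeR; 4.48 without DAC library 2). The gingival values rest on 2 to 11 counts a library. Cldn11, the claudin of myelin and Sertoli cells, was higher by log2 differences from 2.79 to 3.22, Cldn34c1 from 1.58 to 1.61, and Cldn19, a claudin of Schwann cells, from 0.81 to 0.96. Cldn13 had 12.1, 4.98, 6.48 and 5.23 CPM in Sham DAC and no count in the 4 Sham gingival libraries. Against a floor of 3 counts over that group, it was at least 258-fold higher in the DAC.

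Of the other genes that passed through the DAC alone, Cdh22 summed to 136 counts in Sham DAC against 1 count in Sham gingiva, a ratio of 159 with a 95% counting interval of 28.1 to 6324. Sham DAC library 2, the one rich in brain neuron genes, held the highest Cdh22 value, and without it the log2 difference was 5.58 instead of 6.78. Cdh26 had 4.30, 8.08, 5.75 and 4.52 CPM in Sham DAC, against 0.0832, 0.419, 0.112 and 0.162 CPM in Sham gingiva. Cdh20 and Cdh17 stayed under 2 CPM in every DAC library. All of these except Cdh17 were called in each group, and Cdh17 was called in OVXE2 and OVX but not in Sham (adjusted p = 0.741, edgeR). As the filter favours a higher DAC value for these genes, their calls are no separate support for a tissue difference.

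The beta connexins of keratinocytes were lower in the DAC throughout. Gjb2 had 30.4, 28.1, 21.2 and 35.9 CPM in Sham DAC, against 1700, 1436, 1911 and 1564 CPM in Sham gingiva, a log2 difference of -5.84 ± 0.56 (adjusted p = 6.85e-09, edgeR). Gjb6, its partner in mixed channels of skin and inner ear, had 3.12, 4.07, 0.861 and 1.84 CPM in Sham DAC, against 217.5, 188.8, 234 and 217.9 CPM in Sham gingiva, a log2 difference of -6.46 ± 0.73 (adjusted p = 8.64e-08, edgeR). Gjb5, another connexin of keratinocytes, had log2 differences from -3.72 to -2.90. Gja1 was high in both tissues, with 614, 669, 726 and 662 CPM in Sham DAC, against 3200, 3096, 2769 and 2781 CPM in Sham gingiva. Its log2 difference was -2.15 ± 0.09 (adjusted p = 4.98e-14, edgeR), so the gene that led the DAC was still several-fold lower there than in gingiva.

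The endothelial connexins Gja4 and Gja5 were higher in the DAC. Gja4 had 29.9, 21.9, 25.3 and 27.5 CPM in Sham DAC, against 9.69, 10.1, 6.80 and 6.46 CPM in Sham gingiva, a log2 difference of 1.66 ± 0.21 (adjusted p = 3.53e-07, edgeR). Gja5 had log2 differences from 1.11 to 1.57. The share of 5 endothelial marker genes was likewise 0.0532 to 0.0905% in the DAC and 0.0159 to 0.0346% in gingiva, and its part in these values was not tested.

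**Figure D2:**
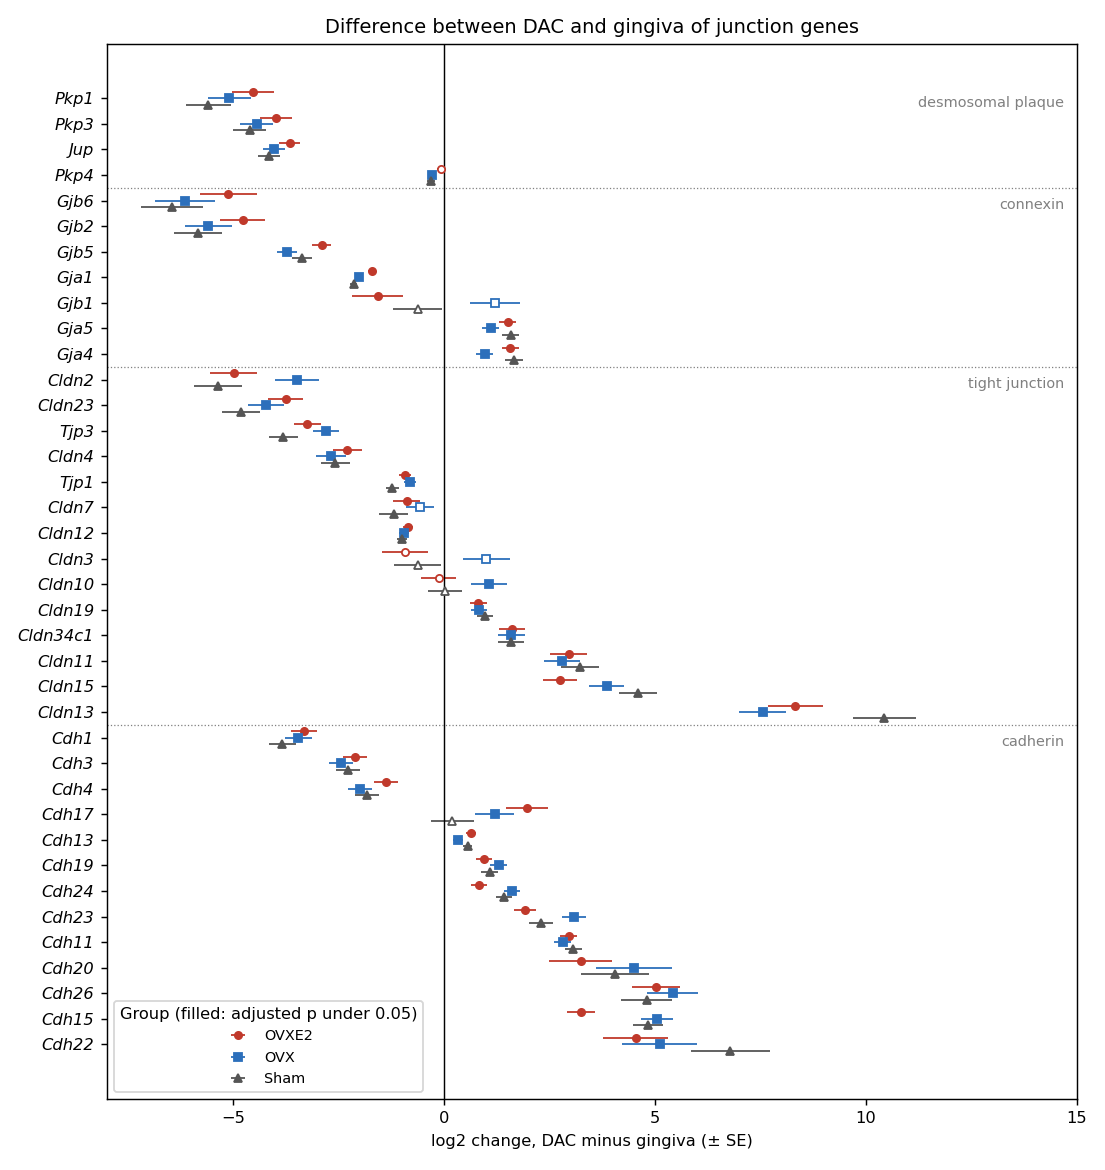
Log2 difference between the DAC and gingiva (positive: higher in the DAC) with its SE for 38 of the 40 junction genes tested, by role, in OVXE2 (circles), OVX (squares) and Sham (triangles); filled symbols passed at an adjusted p under 0.05. Pkp1, Pkp3, Jup, Gjb2, Gjb5 and Gjb6 lay left of 0 in each group and most cadherins right of it. Of these cadherins, Cdh17, Cdh20, Cdh22 and Cdh26 passed the filter through the DAC only, which favours that side. Among cadherins that passed in both tissues, 6 were higher and 3 lower in all 3 groups. The bar of Cldn13 in Sham rests on a gingival group without counts and is a fitted value, not a bound.

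Of the 40 members, 16 were higher in the DAC in all 3 groups and 18 were lower in all 3, 85% together, beside 62.4% of all genes tested (33.3% higher and 29.1% lower in all 3). Among the 35 members that passed the filter in both tissues, 12 were higher and 18 lower, 85.7% together, beside 61.6% of all such genes (30.3% higher and 31.3% lower). Cdh11, known from bone-forming cells, and Gja4 and Gja5, known from endothelium, were among the 16 higher in the DAC. Which cells gave these values was not tested. The 6 others were Cdh17, Cldn10, Cldn3, Cldn7, Gjb1 and Pkp4. Cldn10, a claudin of secretory and renal epithelia, differed in OVX only, with a log2 difference of 1.06 ± 0.42 (adjusted p = 0.0288, edgeR); it missed the threshold without gingiva OVX library 2 or 3, without DAC OVX library 2 and in 3 other alternatives (adjusted p from 0.0567 to 0.0904, edgeR). Gjb1, a connexin of liver, glands and Schwann cells, had a log2 difference of -1.58 ± 0.60 in OVXE2 (adjusted p = 0.0235, edgeR; 0.0579 without gingiva OVXE2 library 3), 1.20 in OVX (adjusted p = 0.0751) and -0.63 in Sham (adjusted p = 0.338). OVX DAC library 1, the one rich in nasal gland genes, held the highest Gjb1 value of the DAC, 15.4 CPM, against 1.23 to 4.71 CPM in the other 11 libraries on the DAC scale. Without it the log2 difference of Gjb1 in OVX was -0.14 (adjusted p = 0.794, edgeR), Cdh17 in OVX no longer passed (0.95, adjusted p = 0.0914), and Cldn7 in OVX passed (-0.80, adjusted p = 0.045), while Cldn10 stayed just past the threshold (adjusted p = 0.0499). Without OVXE2 DAC library 1, Gjb1 in OVXE2 no longer passed (-1.49, adjusted p = 0.0555), whereas Pkp1 in OVXE2 was at -5.36 instead of -4.53 and Gjb6 at -6.79 instead of -5.11. Leaving out Sham DAC library 2 changed no call of a member between DAC and gingiva in Sham.

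Some members lie side by side in the genome (GRCm38). On chromosome 5, Cldn13 (chr5:134914249-134915526, minus strand), which passed the filter through the DAC only, was higher and Cldn4 (chr5:134945119-134946934, minus), 29.6 kb away, was lower in the DAC. Gjb2 (chr14:57098600-57104702, minus strand) and Gjb6 (chr14:57123303-57133611, minus), 18.6 kb apart, were both lower, as were Cdh3 (chr8:106510891-106557297, plus) and E-cadherin (chr8:106603351-106670246, plus), 46.05 kb apart.

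Junction genes outside the set were mostly lower in the DAC. Of 23 listed partners (adaptors, polarity proteins, nectins and pannexins among them), 4 were higher and 17 lower in the DAC in OVXE2, 5 and 17 in OVX, and 4 and 17 in Sham, beside 38 to 39.7% of all genes called higher and 34.1 to 35.4% called lower. Perp, a desmosomal membrane protein of stratified epithelia, had log2 differences from -5.28 to -4.51, and the cingulin gene Cgn from -4.76 to -3.82. Panx3, a pannexin of bone and cartilage, was higher by 6.20 to 6.68 on the log2 scale. Of 8 listed regulators of epithelial gene expression, Grhl3 (-5.66 to -4.68), Ehf (-5.13 to -4.23), Esrp1, Klf4, Ovol2 and Elf3 were lower in the DAC in each group, whereas the E-cadherin repressors Zeb2 (2.35 to 2.52) and Snai1 (2.46 to 2.84 on the log2 scale) were higher.

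Promoter windows were read where members moved together between the tissues. RefSeq windows (GRCm38.p6) of the 250 bases before the start were found for 40 of the 59 listed members, 10 of them lower in the DAC in all 3 groups and 12 higher in all 3; none was found for Cdh1, Pkp1, Cdh11 or Cldn13. The E-box CACCTG, read on both strands (CAGGTG on the other), is bound by Snai1 and Zeb2, and AACNGGTT is the core bound by grainyhead factors such as Grhl3. Counted by gene, the E-box was in 3 of the 10 members lower in the DAC (Cldn4, Gjb2, Tjp3) and in 0 of the 12 higher. It was in 9 of all 40 members with a window (22.5%), Cldn7, Gjb1 and Pkp4 among them, and in 19.4% of the 27025 genes of the table. AACNGGTT was in 1 of the 10 (Gjb6), in 0 of the 12, and in 2.00% of all genes. The full estrogen response element (GGTCA and TGACC set 3 bases apart) was in the windows of 0 of the 40 members and in 0.0666% of all genes. These windows are shown because they hold these matches or belong to Cldn15. That gene was the only member that edgeR called in OVXE2 against OVX in the DAC, near the threshold. Capitals mark the E-box in the first 3 and AACNGGTT in Gjb6, and Cldn15 has neither. They read 5′ to 3′ toward the start, from Cldn4 (chr5:134946935-134947184, minus strand), Gjb2 (chr14:57104703-57104952, minus), Tjp3 (chr10:81291268-81291517, minus, 1 of 2 windows), Gjb6 (chr14:57133612-57133861, minus) and Cldn15 (chr5:136967619-136967868, plus).
Cldn4: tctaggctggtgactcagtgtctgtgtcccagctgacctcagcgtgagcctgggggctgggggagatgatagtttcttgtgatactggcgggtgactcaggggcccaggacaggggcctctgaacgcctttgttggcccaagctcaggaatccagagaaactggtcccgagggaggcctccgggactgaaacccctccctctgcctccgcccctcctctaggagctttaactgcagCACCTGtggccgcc
Gjb2: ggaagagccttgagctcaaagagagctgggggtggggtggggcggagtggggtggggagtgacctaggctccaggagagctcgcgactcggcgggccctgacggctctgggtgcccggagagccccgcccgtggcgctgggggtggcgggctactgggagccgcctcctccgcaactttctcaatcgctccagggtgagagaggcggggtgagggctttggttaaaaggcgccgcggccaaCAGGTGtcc
Tjp3: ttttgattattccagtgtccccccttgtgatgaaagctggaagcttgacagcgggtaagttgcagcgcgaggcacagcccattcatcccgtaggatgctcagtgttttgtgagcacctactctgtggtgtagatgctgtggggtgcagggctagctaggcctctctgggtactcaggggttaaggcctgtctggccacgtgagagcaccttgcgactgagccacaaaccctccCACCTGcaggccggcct
Gjb6: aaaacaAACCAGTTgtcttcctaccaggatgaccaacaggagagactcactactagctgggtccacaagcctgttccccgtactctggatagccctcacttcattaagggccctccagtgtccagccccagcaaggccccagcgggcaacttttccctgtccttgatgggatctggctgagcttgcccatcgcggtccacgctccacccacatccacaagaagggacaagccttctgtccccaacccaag
Cldn15: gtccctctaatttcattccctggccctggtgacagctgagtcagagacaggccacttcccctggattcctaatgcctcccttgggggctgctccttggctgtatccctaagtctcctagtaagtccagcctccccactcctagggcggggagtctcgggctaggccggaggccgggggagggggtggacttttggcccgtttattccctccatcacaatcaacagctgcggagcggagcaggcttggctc
In the printed windows of Cldn4, Gjb2 and Tjp3 the E-box lies 9 to 17 bases before the start; in the other window of Tjp3 it lies 108 bases before the start. These are letter matches in the reference genome and say nothing of binding in these tissues.

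Plaque genes, connexins and cadherins varied more between libraries of 1 group in the DAC than in gingiva, a difference that is described here without a test. The coefficient of variation within a group had a median of 31.7% over the 4 plaque genes and the 3 DAC groups, against 5.56% in gingiva. For connexins these medians were 25.4 and 11.0%, for tight junction genes 23.9 and 22.2%, and for cadherins 23.9 and 15.8%. The DAC medians of cadherins and tight junction genes include 5 members not tested in gingiva. Most plaque genes and connexins had lower levels in the DAC, and the part of level in this spread was not tested. Pkp1 had 547.6, 159.6, 69.8 and 177 CPM in OVXE2 DAC, 260.2, 78.1, 92.4 and 216 CPM in OVX DAC, and 141.5, 85.9, 116 and 150.5 CPM in Sham DAC. Gjb2 had 132, 57.3, 15.6 and 32.3 CPM in OVXE2 DAC, 60.2, 11.9, 19.9 and 30.8 CPM in OVX DAC, and 32.3, 29.7, 22.8 and 38.4 CPM in Sham DAC. In both genes OVXE2 library 1 was the highest and the groups overlapped.

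That library was the highest of the 12 for 9 members, among them Cldn23, Gja1, Gjb2, Gjb5, Gjb6, Jup, Pkp1 and Pkp3, and it also had the largest share of stratified epithelium markers. The stratified epithelium share was 1.08, 0.274, 0.139 and 0.256% in the OVXE2 libraries, 0.443, 0.106, 0.167 and 0.438% in the OVX libraries and 0.271, 0.153, 0.168 and 0.350% in the Sham libraries. OVX library 1, with the highest nasal gland share, was the highest for Cdh1, Cdh17, Cdh19, Cdh23, Cldn3, Cldn7, Gjb1 and Tjp3. OVXE2 library 3 was the lowest for 13 members, among them E-cadherin, Cdh3, Cldn4, Cldn7, Cldn3, Pkp1 and Tjp1. The part of these cell sources in the junction genes was not tested.

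**Figure D3:**
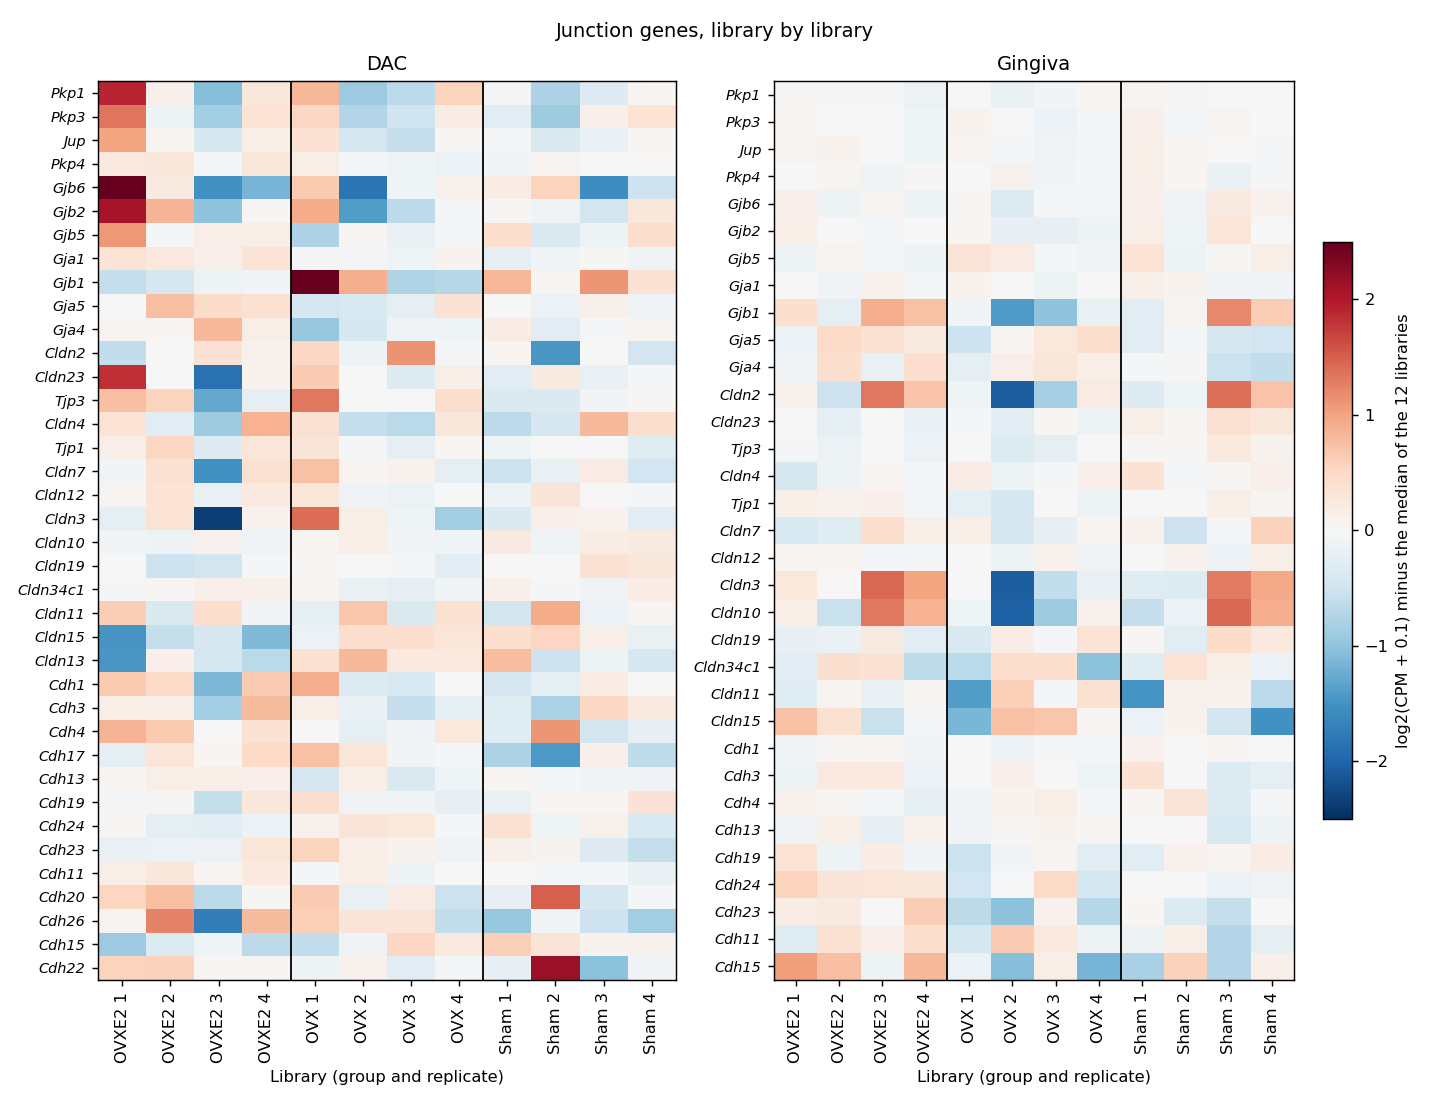
Log2(CPM + 0.1) of junction genes tested (38 of 40 in the DAC, 33 of 35 in gingiva) minus its median over the 12 libraries of the tissue, DAC on the left and gingiva on the right, with libraries in the order OVXE2, OVX and Sham and genes by role. Red cells are above and blue cells below the median. The DAC shows single libraries that stand out, OVXE2 1 and OVX 1 high and OVXE2 3 low. Gingiva shows wide spread in Gjb1, Cldn2, Cldn3 and Cldn10, and also in members with low levels there, such as Cldn15, Cdh15 and Cldn11.

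With estradiol, 1 of the 40 junction genes tested in the DAC passed at an adjusted p under 0.05. Cldn15 fell in OVXE2 against OVX, beside 1.45% of all 13617 genes called lower, 0.676% called higher and 2.13% called in either direction. At an unadjusted p under 0.05 (edgeR) there were 11 members (27.5%) in this comparison, beside 10.03% of all genes. Cldn15 had 2.28, 4.28, 4.90 and 2.98 CPM in OVXE2 DAC, 5.91, 8.72, 8.79 and 8.05 CPM in OVX DAC, and 8.77, 9.49, 7.18 and 5.73 CPM in Sham DAC. All 4 OVXE2 values lay below all OVX and all Sham values, while OVX and Sham overlapped. The log2 change was -1.12 ± 0.25 against OVX (adjusted p = 0.0469, edgeR) and -1.11 ± 0.25 against Sham, which did not pass (adjusted p = 0.0807, edgeR).

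The call stood near the threshold. Over 23 alternatives the log2 change against OVX ran from -1.30 to -0.96 and the adjusted p from 0.00128 to 0.314, with 8 of 23 under 0.05. DESeq2 (adjusted p = 0.00128) and limma-voom (0.0298) also called it. It was lost when only the OVXE2 and OVX libraries were fitted (0.108), without low-count filtering (0.0543), without the 2 libraries richest in nasal gland counts (0.0828), without the libraries richest in stratified epithelium and nasal gland counts (0.0828, chosen after the data were seen), without the 4 richest in brain neuron counts (0.196), within the libraries with a higher other-strand share (0.314), and without any 1 of OVXE2 1, 2 or 4, OVX 2, 3 or 4, or Sham 1, 2 or 3. Leukocyte markers took 0.1002 to 0.182% of counts in OVXE2 DAC, 0.145 to 0.237% in OVX DAC and 0.180 to 0.239% in Sham DAC; their part in Cldn15 was not tested.

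Gja1 was the member nearest to a rise. It had 967, 908, 833 and 959 CPM in OVXE2 DAC, 734, 739, 704 and 809 CPM in OVX DAC, and 653, 705, 778 and 708 CPM in Sham DAC. The OVXE2 libraries were all above the others, but the log2 differences of 0.30 ± 0.08 against OVX (adjusted p = 0.110, edgeR) and 0.37 ± 0.08 against Sham (adjusted p = 0.0653, edgeR) did not pass. DESeq2 called both (adjusted p = 0.00225 and 6.74e-05). The difference against OVX was 0.27 without OVXE2 library 1 and 0.29 without OVX library 1. Markers of osteoblasts and osteocytes, which use Gja1, took 0.938 to 1.12% of counts in OVXE2 DAC, 0.532 to 0.877% in OVX DAC and 0.747 to 0.854% in Sham DAC; their part was not tested.

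The endothelial connexins had the next smallest p. Gja4 had 29.4, 28.7, 49.2 and 31.1 CPM in OVXE2 DAC, against 14.5, 21.01, 26.2 and 25.9 CPM in OVX DAC, and the groups did not overlap; the log2 difference of 0.66 ± 0.22 did not pass (adjusted p = 0.212, edgeR). It was 0.73 without OVXE2 library 1 and 0.50 without OVX library 1. OVXE2 library 3 held the highest Gja4 value, 49.2 CPM. Over all its alternatives the log2 difference of Gja4 ran from 0.44 to 0.76 and the adjusted p from 0.0781 to 0.904 (edgeR, DESeq2 or limma-voom). Gja5 had 14.5, 24.2, 19.9 and 18.8 CPM in OVXE2 DAC, against 10.7, 11.0, 12.3 and 18.5 CPM in OVX DAC, a log2 difference of 0.56 ± 0.19 that did not pass (adjusted p = 0.248, edgeR), with overlap at OVX library 4. Without OVX library 4 it was 0.77 and passed (adjusted p = 0.0479, edgeR); over its alternatives the adjusted p ran from 0.0479 to 0.9985. Endothelial markers took 0.0731 to 0.0905% of counts in OVXE2 DAC, against 0.0532 to 0.0674% in OVX DAC, and their part in both connexins was not tested.

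Cldn13, known in mouse from red cell precursors, had 2.67, 8.19, 5.62 and 4.66 CPM in OVXE2 DAC, against 9.82, 13.2, 8.95 and 8.91 CPM in OVX DAC. The groups did not overlap, but the log2 difference of -0.95 ± 0.35 did not pass (adjusted p = 0.306, edgeR). It was -0.73 without OVXE2 library 1 and -0.97 without OVX library 1. Erythroid markers, a list added after the data were seen, took 0.0926 to 0.271% of counts in OVXE2 DAC, against 0.177 to 0.368% in OVX DAC; their part was not tested. In all, 4 of 40 members had OVXE2 and OVX groups that did not overlap, 2 with OVXE2 above (3.22% of all genes) and 2 with OVXE2 below (3.51%).

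Against Sham, edgeR called 0 of 40 members in OVXE2 DAC, beside 1.05% of all genes. At an unadjusted p under 0.05 (edgeR) there were 7 members (17.5%), beside 8.77% of all genes. DESeq2 called 2 (Gja1 and Cldn15) and limma-voom 0. Without OVXE2 library 3, edgeR called the same 2 genes. Cdh15 had 10.01, 14.9, 17.4 and 11.9 CPM in OVXE2 DAC, against 28.8, 23.7, 20.2 and 20.5 CPM in Sham DAC, without overlap; its log2 difference of -0.78 ± 0.24 did not pass (adjusted p = 0.249, edgeR). Cdh11 had 695, 764, 658 and 752 CPM in OVXE2 DAC, against 634.5, 617, 619.5 and 561 CPM in Sham DAC, again without overlap, with a log2 difference of 0.24 ± 0.08 (adjusted p = 0.346, edgeR). In all, 2 members (Cdh11 and Gja1) had OVXE2 values above all Sham values, as 2.63% of all genes did, and 3 (Cdh15, Cldn15 and Gjb1) had them below, as 2.78% did.

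**Figure D4:**
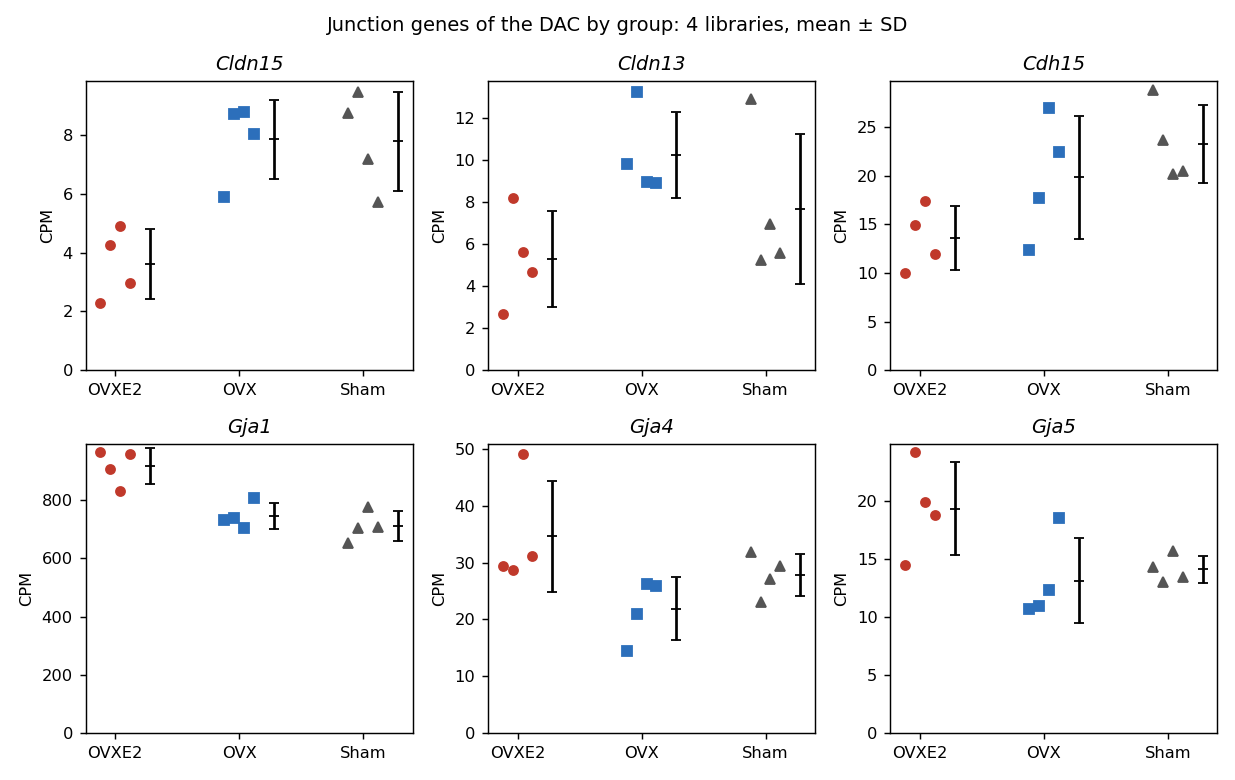
CPM (TMM-scaled over the 12 DAC libraries) of Cldn15, Cldn13, Cdh15, Gja1, Gja4 and Gja5 in OVXE2, OVX and Sham DAC, 1 symbol per library, with mean and SD (n = 4 per group) as a bar beside them. The OVXE2 values of Cldn15 (2.28 to 4.90 CPM) lay below and those of Gja1 (833 to 967 CPM) above every OVX and Sham value; only Cldn15 against OVX passed the test.

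The epithelial core of the set showed no call with estradiol in the DAC. Log2 differences of OVXE2 against OVX were 0.56 ± 0.56 for Pkp1, 0.40 ± 0.28 for plakoglobin, 0.95 ± 0.60 for Gjb2, 1.07 ± 0.88 for Gjb6, 0.16 ± 0.37 for E-cadherin and 0.22 ± 0.42 for Cldn4 (adjusted p from 0.765 to 0.986, edgeR). Without OVXE2 library 1, whose stratified epithelium share was the highest of the DAC (1.08% of counts), the log2 differences were -0.25 for Pkp1, 0.06 for plakoglobin, 0.19 for Gjb2, -0.58 for Gjb6, 0.03 for E-cadherin and 0.16 for Cldn4. Without OVX library 1, rich in nasal gland genes, they were 0.89 for Pkp1, 0.59 for plakoglobin, 1.503 for Gjb2, 1.43 for Gjb6, 0.54 for E-cadherin and 0.41 for Cldn4. None of these passed (edgeR), and the part of the marker shares was not tested. Their SEs limit what could be detected. The median log2 difference of the 40 members was 0.186, beside 0.021 for all genes.

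Ovariectomy without replacement gave no call among the junction genes of the DAC. Between OVX and Sham, edgeR, DESeq2 and limma-voom each called 0 of 40 members, and edgeR called 0% of all genes. Only 1 member (Cdh17) had an unadjusted p under 0.05 (edgeR), beside 3.21% of all genes. Cdh17 had 0.639, 0.450, 0.327 and 0.333 CPM in OVX DAC, against 0.162, 0.0641, 0.388 and 0.188 CPM in Sham DAC, from 1 to 16 counts a library (log2 difference 1.08 ± 0.45, adjusted p = 0.874, edgeR). No member had OVX and Sham groups that did not overlap, beside 1.66% of all genes with OVX above and 1.26% with OVX below. Cldn2 had the next smallest p, with a log2 difference of 0.84 ± 0.40 (adjusted p = 0.874, edgeR).

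In gingiva, where the epithelial genes had little spread, no junction gene passed in any comparison. Of 35 members tested, edgeR, DESeq2 and limma-voom each called 0 in OVXE2 against OVX, in OVXE2 against Sham and in OVX against Sham. By edgeR, 0% of all 12680 genes were called in each. In these comparisons 6, 6 and 7 members (17.14, 17.14 and 20%) had an unadjusted p under 0.05 (edgeR), beside 13.93, 7.405 and 12.07% of all genes. The dominant genes were close in all groups. Pkp1 had 5343, 5362, 5057 and 4770 CPM in OVXE2 gingiva, 5254, 4672, 5007 and 5466 CPM in OVX gingiva, and 5520, 5325, 5247 and 5247 CPM in Sham gingiva. The log2 difference of Pkp1 was 0.01 ± 0.07 in OVXE2 against OVX and -0.06 ± 0.07 in OVX against Sham, and those of plakoglobin were 0.03 ± 0.07 and -0.06 ± 0.07.

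The scaffold Tjp1 had the smallest p of OVXE2 against OVX in gingiva. It had 227, 223, 225 and 199.9 CPM in OVXE2 gingiva, 174, 152, 204 and 189 CPM in OVX gingiva, and 206, 207, 229.9 and 215 CPM in Sham gingiva. All OVX values lay below all Sham values, while OVXE2 and OVX overlapped. The log2 difference was 0.28 ± 0.08 in OVXE2 against OVX (adjusted p = 0.294, edgeR) and -0.25 ± 0.08 in OVX against Sham (adjusted p = 0.376, edgeR); both use the same OVX libraries.

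Cldn23 and Tjp3 also had OVX values below all Sham values. Cldn23 had 28.7, 24.8, 29.2 and 25.8 CPM in OVXE2 gingiva, 28.2, 24.1, 29.5 and 26.6 CPM in OVX gingiva, and 32.0, 29.6, 37.9 and 35.1 CPM in Sham gingiva. Both OVXE2 (log2 difference -0.31 ± 0.09, adjusted p = 0.630, edgeR) and OVX (-0.31 ± 0.09, adjusted p = 0.376, edgeR) stood below Sham without passing. Tjp3 had 63.1, 58.4, 64.4 and 58.3 CPM in OVXE2 gingiva, 64.4, 50.7, 54.7 and 64.7 CPM in OVX gingiva, and 65.6, 65.6, 76.6 and 68.9 CPM in Sham gingiva (OVX against Sham -0.24 ± 0.08, adjusted p = 0.376, edgeR). The 3 genes Cldn23, Tjp1 and Tjp3 were the members with OVX groups below Sham without overlap, beside 3.53% of all genes, and none had OVX above Sham without overlap (2.22% of all genes). Against Sham, OVXE2 values lay below without overlap in Cldn23 and Tjp3, among others (2.66% of all genes), and above in Cdh24 (2.26%).

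Several claudins and a connexin of gingiva spread widely within each group. Cldn2 had 41.1, 26.9, 96.1 and 62.8 CPM in OVXE2 gingiva, 35.3, 9.06, 21.4 and 44.3 CPM in OVX gingiva, and 30.4, 35.6, 99.9 and 62.6 CPM in Sham gingiva. The groups overlapped, and the log2 difference of 1.04 ± 0.54 in OVXE2 against OVX did not pass (adjusted p = 0.410, edgeR). Cldn10 had 19.8, 11.9, 44.1 and 32.2 CPM in OVXE2 gingiva, against 16.3, 4.19, 9.45 and 19.04 CPM in OVX gingiva (log2 difference 1.13 ± 0.57, adjusted p = 0.395, edgeR). Cldn3, an epithelial claudin, had 6.50, 5.39, 14.6 and 10.7 CPM in OVXE2 gingiva, against 5.35, 1.22, 3.48 and 4.74 CPM in OVX gingiva, and was the 1 member whose OVXE2 and OVX groups did not overlap (OVXE2 above for 3.16% of all genes and below for 2.92%; log2 difference 1.32 ± 0.50, adjusted p = 0.315, edgeR). Gjb1 had 4.39, 2.78, 6.24 and 5.53 CPM in OVXE2 gingiva, against 3.15, 1.17, 1.58 and 2.91 CPM in OVX gingiva (log2 difference 1.09 ± 0.39, adjusted p = 0.310, edgeR).

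In each of these genes OVXE2 library 3 and Sham library 3 were high and OVX library 2 was the lowest of the 12. A list of 12 minor salivary gland genes, added after the data were seen and with 6 listed, took 0.298, 0.203, 0.861 and 0.712% of counts in OVXE2 gingiva, 0.358, 0.0784, 0.132 and 0.396% in OVX gingiva, and 0.288, 0.356, 1.05 and 0.755% in Sham gingiva. The high and low libraries were thus the same, and the part of gland tissue in these values was not tested. Muc5b made up most of that list, with a median of 5539 CPM in Sham gingiva, while Prol1 had no count in any Sham library and Pip had none to 0.0391 CPM.

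**Figure D5:**
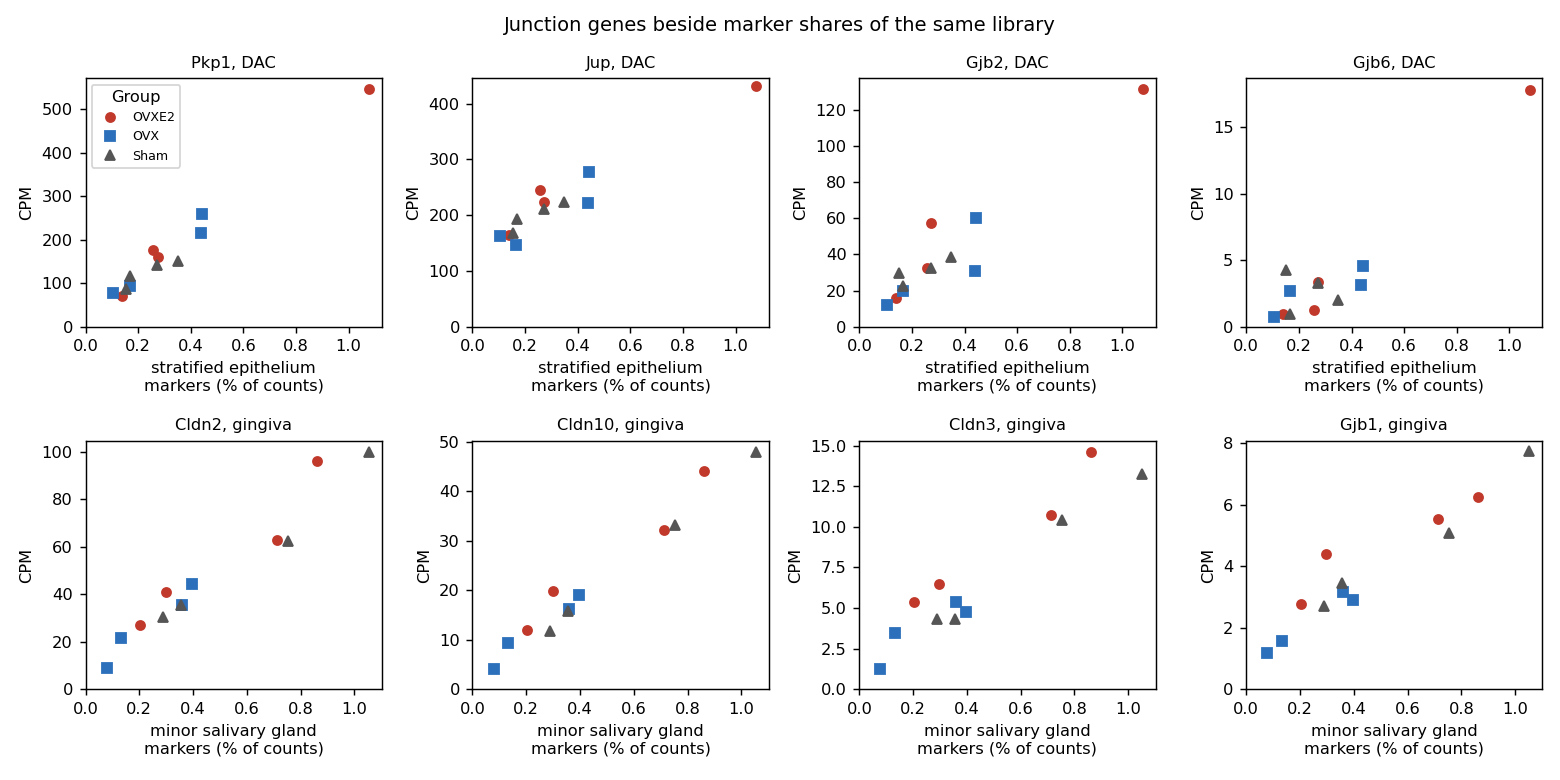
CPM of Pkp1, Jup, Gjb2 and Gjb6 in the 12 DAC libraries against the share of counts in stratified epithelium markers (top), and CPM of Cldn2, Cldn10, Cldn3 and Gjb1 in the 12 gingival libraries against the share in minor salivary gland markers (bottom), with OVXE2 as circles, OVX as squares and Sham as triangles. OVXE2 DAC library 1 lies at 1.08% and at the top of each upper panel, and in the lower panels libraries with a share of 0.712% or more have the highest values.

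M-cadherin had its 4 gingival OVXE2 values at 1.70, 1.37, 0.698 and 1.43 CPM, against 0.691, 0.318, 0.859 and 0.291 CPM in OVX gingiva, from 6 to 41 counts a library, and the groups overlapped. The log2 difference of 1.25 ± 0.44 did not pass (adjusted p = 0.305, edgeR). Skeletal muscle markers took 0.1003 to 0.334% of counts in OVXE2 gingiva and 0.0421 to 0.145% in OVX gingiva, and their part was not tested. Cdh23 had 0.621, 0.644, 0.534 and 0.876 CPM in OVXE2 gingiva, against 0.302, 0.212, 0.588 and 0.291 CPM in OVX gingiva (log2 difference 0.92 ± 0.33, adjusted p = 0.310, edgeR).

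Differences between the tissues in their response were tested as interactions over the 24 libraries, and edgeR called 0 of 40 members in each of the 3. In OVXE2 against OVX, 10 of 40 members had an unadjusted p under 0.05 (edgeR), beside 8.81% of all genes. In OVXE2 against Sham these were 6 and 7.81%, and in OVX against Sham 5 and 8.53%. At an adjusted p under 0.05, edgeR called 0.19, 0.0633 and 0% of all genes in these 3 interactions. Over all genes these calls were 0.0704% higher and 0.12% lower in OVXE2 against OVX, and 0.0352% higher and 0.0282% lower in OVXE2 against Sham. DESeq2 called 1, 1 and 0 members, and limma-voom 0 in each. The smallest p was that of Cdh15 in OVXE2 against OVX, where the change in the DAC minus that in gingiva was -1.80 ± 0.48 on the log2 scale (adjusted p = 0.181, edgeR; 0.0276 with DESeq2). Gja1 in OVXE2 against Sham gave 0.43 ± 0.13 (adjusted p = 0.333, edgeR; 0.0200 with DESeq2), with 0.37 in the DAC and -0.03 in gingiva. For Cldn15 the interaction was -1.10 ± 0.57 in OVXE2 against OVX (adjusted p = 0.588, edgeR) and -1.85 ± 0.59 in OVXE2 against Sham (adjusted p = 0.410, edgeR). Its fall in the DAC is not shown to differ from its change in gingiva.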

How the data were processed

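Poly(A) RNA of 24 samples was sequenced. Per the submitters' processing notes, fastp, STAR and DESeq2 were used with GRCm38 (mm10); their versions and the gene annotation are not stated there. The deposited values are raw counts per gene and strand, and the strand column with most reads was used; the other strand held 3.38 to 9.03%. Lines that name no gene held 30.5 to 42.5% and stayed out of library sizes. GENCODE M21 gave names, positions and exon lengths.

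Counts were filtered (filterByExpr), TMM-scaled and tested with edgeR 4.0.16 in R 4.3.3 (quasi-likelihood, robust), over 12 libraries per tissue (9 residual degrees of freedom; 13617 genes in the DAC, 12680 in gingiva) or all 24 (18; 14209 genes); the biological coefficient of variation was 0.305, 0.164 and 0.248. The threshold was an adjusted p under 0.05 (Benjamini-Hochberg). A log2 difference is the first group named minus the second. The scripts were tested on simulated data. DESeq2 1.42.0 and limma-voom (limma 3.58.1) were alternatives. Reads were counted without unique molecular identifiers. The counting interval covers only the sampling error of the summed counts, and not the spread between libraries. Named genes are those past the test (the 10 largest a direction), else the 4 smallest p, the 10 highest levels and a panel; genes with groups that do not overlap or that varied together were added after their values were seen. Members and lists were chosen with earlier results of these data known. No library was a copy of another (chi-square per degree of freedom at least 16.7). Counts of members cover all that were tested, but values of some are not reported here.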

Additional observations from a re-analysis of the deposited data

Results flagged for a closer look

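Of 213 groups of 4 libraries, 13 held a library far from the other 3 (Dixon's test at 95%); chance gives about 1 in 20. In OVXE2 DAC, library 1 was high for Gjb6 (17.8 CPM, others 0.945 to 3.39) and Gjb5 (4.85 CPM, others 2.20 to 2.52); this library had the largest share of stratified epithelium markers, whose part was not tested. OVXE2 DAC library 3 was low for the epithelial cadherin Cdh1 (26.1 CPM, others 79.97 to 90.03) and for Pkp4 (71.9 CPM, others 88.3 to 90.4) and high for the endothelial connexin Gja4 (49.2 CPM, others 28.7 to 31.1). OVXE2 DAC library 4 was high for Cdh23 (3.51 CPM, others 2.46 to 2.53).

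Sham DAC library 2 was high for the neural cadherins Cdh20 (1.92 CPM, others 0.437 to 0.610) and Cdh22 (5.19 CPM, others 0.485 to 1.03) and for Cdh4 (3.08 CPM, others 0.971 to 1.17), and low for Cldn10 (25.97 CPM, others 31.4 to 32.5). It had the largest share of brain neuron markers, 0.0325% of counts, whose part was not tested. In OVXE2 gingiva, library 1 was high for Cdh24 (2.94 CPM, others 2.43 to 2.495), library 3 was high for Cldn19 (3.20 CPM, others 2.27 to 2.42) and library 4 was low for the scaffold Tjp1 (199.9 CPM, others 223 to 227).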

How the results depend on the processing

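Members called in OVXE2 against OVX in the DAC numbered 1; this became 2 with DESeq2 (Cldn15 and Gja1) and 0 without low-count filtering, with only the 2 groups compared, within the higher other-strand libraries, without the 4 libraries richest in brain neuron or the 2 richest in nasal gland counts and, chosen after the data were seen, without the libraries richest in stratified epithelium and in nasal gland counts. Leaving out each library gave 0 to 1; the 1 was Cdh13 without OVX 2 (log2 change 0.42, adjusted p = 0.0381, edgeR), Gja5 without OVX 4 (0.77, adjusted p = 0.0479) and otherwise Cldn15. In OVXE2 against Sham in the DAC, 0 became 2 with DESeq2 and 0 to 2 when each library was left out. Interactions of OVXE2 against OVX and against Sham each became 1 with DESeq2. The cause of these changes was not tested. Over all genes, edgeR called 290 in OVXE2 against OVX in the DAC, against 598 with DESeq2, 189 with only these groups, 39 in the higher other-strand set, 37 without the brain-rich, 162 without the nasal-rich and 134 without both richest libraries; for OVXE2 against Sham these were 143, 340, 64, 16, 10, 68 and 68. DESeq2 also called 10 genes in OVX against Sham in the DAC, 92, 8 and 44 in the 3 gingival comparisons, and 108 and 64 against 27 and 9 in the first interactions; edgeR called 60 in OVXE2 against OVX in gingiva without OVX 3. Leaving out each library gave 176 to 290 and 61 to 164 genes in these DAC comparisons, and 15 to 33 and 4 to 37 in the first interactions. Between DAC and gingiva the counts of members stayed at 35 to 39 under every alternative run. Some differences of named members changed sign under an alternative, and none of the values with the changed sign passed. Between DAC and gingiva these were Gjb1 in OVX (-0.14 without the brain-rich and -0.17 without the nasal-rich; -0.14 to 1.54 over libraries left out, and called without DAC OVX 3 or OVX 4), Cdh17 in Sham (-0.32 without the nasal-rich; -0.30 to 0.44), Cldn10 in OVXE2 (0.0313 with limma-voom; -0.38 to 0.21), Cldn10 in Sham (-0.024 unfiltered and -0.0093 without the nasal-rich; -0.24 to 0.44) and Pkp4 in OVXE2 (-0.112 to 0.0191). In OVXE2 against OVX in the DAC they were Pkp1 (-0.0624 without the brain-rich; -0.25 to 0.89), Gjb6 (-0.99 without the brain-rich and -0.23 without both richest; -0.58 to 1.43) and Cldn4 (-0.0743 in the higher other-strand set; -0.12 to 0.45). In gingiva they were Pkp1 in OVXE2 against OVX (-0.0255 in the higher other-strand set; -0.031 to 0.046), plakoglobin in the same comparison (-0.0569 in that set) and Gja1 in OVXE2 against Sham (-0.0685 to 0.00926). In OVX, Cdh17 lost its call between DAC and gingiva in 6 alternatives (adjusted p from 0.0624 to 0.0966, edgeR), DAC OVX 1 left out among them.

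No pairing by replicate number was used in the main fits. Same-number libraries of different groups had correlations of -0.348 to 0.348 in the DAC (5 of 12 over 0.1) and -0.531 to 0.285 in gingiva (3 of 12). DAC and gingival libraries of the same treatment and number had correlations of -0.3235 to 0.2446 (2 of 12 over 0.1). These values cannot show whether the tissues came from shared animals. With the replicate number as a block, the members called were 1, 0 and 0 in the DAC, 0 in each gingival comparison and interaction, and 37, 37 and 36 between DAC and gingiva, as without it.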
